A study of Mus musculus and Homo sapiens
Mus musculus with 12 samples.

Results

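The heat shock and DnaJ chaperones were described here in the nuclei of 7 mouse brain libraries made with snHH-seq, a droplet method that reads total RNA of single nuclei from random primers. Members were chosen by gene symbol alone, as the Hspa, Hspb and Hsp90 series, Hsph1, Hspd1, Hspe1 and the Dnaja, Dnajb and Dnajc series. The rule found 68 members among the 34496 genes listed in any brain library, and 62 of them were listed in every library. All tissue was brain of wild-type C57BL/6J male mice aged 6 to 8 weeks, ground in liquid nitrogen before the nuclei were released and fixed. The 4 groups crossed storage with the reverse transcription primer: nuclei came from frozen or from fresh tissue, and the primer carried a preindex (a first cell barcode added during reverse transcription) or none. Frozen and fresh tissue without preindex had 2 libraries each, preindexed frozen tissue had 2 and preindexed fresh tissue had 1.

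Molecular chaperones bind unfolded stretches of other proteins and let them fold, cross membranes or be taken apart. Hsp70 proteins (Hspa genes) work in cycles of ATP hydrolysis: a J-domain protein (Dnaja, Dnajb or Dnajc) hands over the client and starts hydrolysis, and a nucleotide exchange factor such as an Hsp110 protein (Hsph1, Hspa4, Hspa4l) releases it. Hsp90 proteins finish the folding of kinases and receptors, Hspd1 with Hspe1 forms the folding chamber of mitochondria, and small heat shock proteins (Hspb) hold damaged proteins until Hsp70 takes them. In neurons J-domain proteins also serve synaptic vesicles, where auxilin (Dnajc6) recruits Hspa8 to strip clathrin coats. Heat and misfolded protein raise the inducible genes of these families through heat shock factor 1 in the nucleus and cytosol and through the unfolded protein response in the endoplasmic reticulum (ER).

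Both programmes act through short promoter elements, and the stretches below are shown because they hold the letters of such an element. The 250 bases before the annotated start were read from RefSeq for 55 of the 68 members (build GRCm38.p6) and searched on both strands. A heat shock element of 3 units was written as GAANNTTCNNGAA or its complement, which overlaps the shorter 2-unit form GAANNTTC, and the ER stress response element as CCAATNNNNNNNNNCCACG or its complement. The 3-unit heat shock element was in 0.466% of 32851 promoters (0.514% of 27025 genes) and in 3 of the 55 members, Dnajb6, Hspd1 and Hspe1. The 2-unit form was in 6.69% of promoters (7.73% of genes) and in 11 members, including Hspa1a and Hspa1b. The ER element was in 0.113% of promoters (0.13% of genes) and in 3 members, Hspa5, Hsp90b1 and Dnajc3, whose products all work in the ER. Capitals mark the matched letters, and each line is given 5′ to 3′ on the strand of its gene. Positions are set by RefSeq starts, while the gene spans given with the values below are those of GENCODE, whose outermost start can lie further upstream, as it does for Hspa5.
Hspa5 (BiP, the Hsp70 of the ER), chr2:34772019-34772048, plus strand: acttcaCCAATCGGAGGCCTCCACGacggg
Hsp90b1 (the Hsp90 of the ER, 2 matches on opposite strands), chr10:86705528-86705661, minus strand: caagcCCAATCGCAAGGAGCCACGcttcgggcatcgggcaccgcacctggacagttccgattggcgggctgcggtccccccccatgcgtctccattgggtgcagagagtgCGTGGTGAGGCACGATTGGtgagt
Dnajc3 (an ER J-domain protein), chr14:118937786-118937885, plus strand: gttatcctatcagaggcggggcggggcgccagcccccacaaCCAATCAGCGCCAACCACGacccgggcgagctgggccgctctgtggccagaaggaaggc
Hspe1 (mitochondrial co-chaperonin, with 2 overlapping matches), chr1:55088053-55088082, plus strand: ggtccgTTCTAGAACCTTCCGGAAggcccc
Dnajb6 (a cytosolic and nuclear J-domain protein that limits aggregation), chr5:29735843-29735872, plus strand: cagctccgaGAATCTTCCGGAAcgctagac
Hspa1a (inducible cytosolic Hsp70), chr17:34972207-34972306, minus strand: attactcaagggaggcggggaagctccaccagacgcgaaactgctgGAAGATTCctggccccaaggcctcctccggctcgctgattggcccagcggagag
Hspa1b (inducible cytosolic Hsp70), chr17:34959289-34959388, minus strand: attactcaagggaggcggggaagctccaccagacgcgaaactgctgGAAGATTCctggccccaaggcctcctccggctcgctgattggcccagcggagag
The bases shown before Hspe1 also lie before the start of Hspd1, which is read from the other strand of the same short region. Hspa1a and Hspa1b differed at 0 positions of the stretch shown and at 3 positions of the 250 bases before their starts. A match is a description of letters and not a measured site.

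The 7 libraries held 11198 nuclei and 180739290 unique fragment identifiers (UFIs, the molecule counts of the method), between 8605214 and 42439731 per library. The median nucleus of a library held 9011.5 to 27543 UFIs, of which 19 to 60 came from the members. For 4 of the 7 libraries the treatment field of the labels names the other primer than the title. Titles were used here, and the cell barcodes had 40 letters in the libraries titled as indexed and 30 in the others. The pairs of libraries with the same primer shared at most 10 barcodes, in 7 pairs. Across primers no barcode can be shared, since their lengths differ. The labels do not say whether libraries came from separate mice, so p-values measure the spread between these libraries, which may be technical. Of all nuclei, 9870 lay in clusters with neuron markers, named neuron-like below. They made up 80.4% and 82.7% of the preindexed frozen libraries and 89.6% to 94.6% of the others, so the brain label held for most nuclei but not for all. A cluster of 481 nuclei carried markers of kidney tubule (Slc34a1, Lrp2, Slc12a1) and was seen only in the preindexed frozen libraries, with 268 of 2300 and 213 of 1998 nuclei. A count of 0 in the other 5 libraries allows a share of at most 0.0968% to 0.429% of nuclei, for counting error alone. Nuclei with at least 10 UFIs of liver genes, named liver-rich below, were seen only in the preindexed fresh library (20 of 3100). Cerebellar granule-like nuclei (245) were seen only in the libraries without preindex, at 10.6% and 10.9% of frozen and 3.9% and 3.46% of fresh nuclei. In sums over a library, fewer nuclei of a kind and less RNA per nucleus cannot be told apart.

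Members took 376978 UFIs, or 0.209% of all. Summed over the members, the level was 2103 and 2123 CPM (the UFIs of a gene for every 1000000 UFIs of the library) in frozen and 2176 and 2202 in fresh tissue without preindex. With preindex it was 1926 and 1968 CPM in frozen and 2090 in fresh tissue. With both primers the frozen libraries lay below the fresh ones, with 1 fresh library under preindex. How often other sets of genes show this order was not counted. The kinds of nuclei also differed between these groups, as given above. J-domain proteins of the Dnajc series held 55.6% of the members' CPM, Hsp70 and Hsp110 genes 20.3%, the Dnajb series 12.5%, Hsp90 genes 6.87% and the Dnaja series 3.54%. Small heat shock proteins with Hspb11 held 0.613% and the mitochondrial chaperonin pair 0.545%.

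The most abundant members in CPM were long genes. Dnajc6 (auxilin) had a mean of 332 ± 15.9 CPM (SD, n = 7 libraries), Dnajc1 (an ER membrane J-domain protein) 170 ± 23.2 CPM, Hspa12a (a distant Hsp70 relative) 139 ± 6.47 CPM and Dnajc13 (an endosomal J-domain protein) 121 ± 7.11 CPM. Dnajc5, the cysteine string protein of synaptic vesicles, followed at 94.3 ± 8.09 CPM. These 5 and the next 5, Hspa4l, Hsp90ab1, Dnajb6, Dnajc7 and Hspa4, together took 56.9% of the members' CPM. Reads were counted over whole genes, introns included, and the members' gene spans ran from 781 to 197177 bases, so levels between genes are compared only per length. Per kilobase of span the order was another: Hsp90ab1 led at 12.8 CPM per kb, followed by Hspa5 at 5.78, Dnajb5 at 4.07, Hspa8 at 3.88, Hsp90b1 at 3.45, Dnajc5 at 2.72 and Dnajc6 at 2.27 CPM per kb. The median member lay at 0.776 CPM per kb and the lowest, Dnajc25, at 0.0017. Gm20503 overlaps 94.45% of the exon length of Dnajc25 on the same strand.

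**Figure D1:**
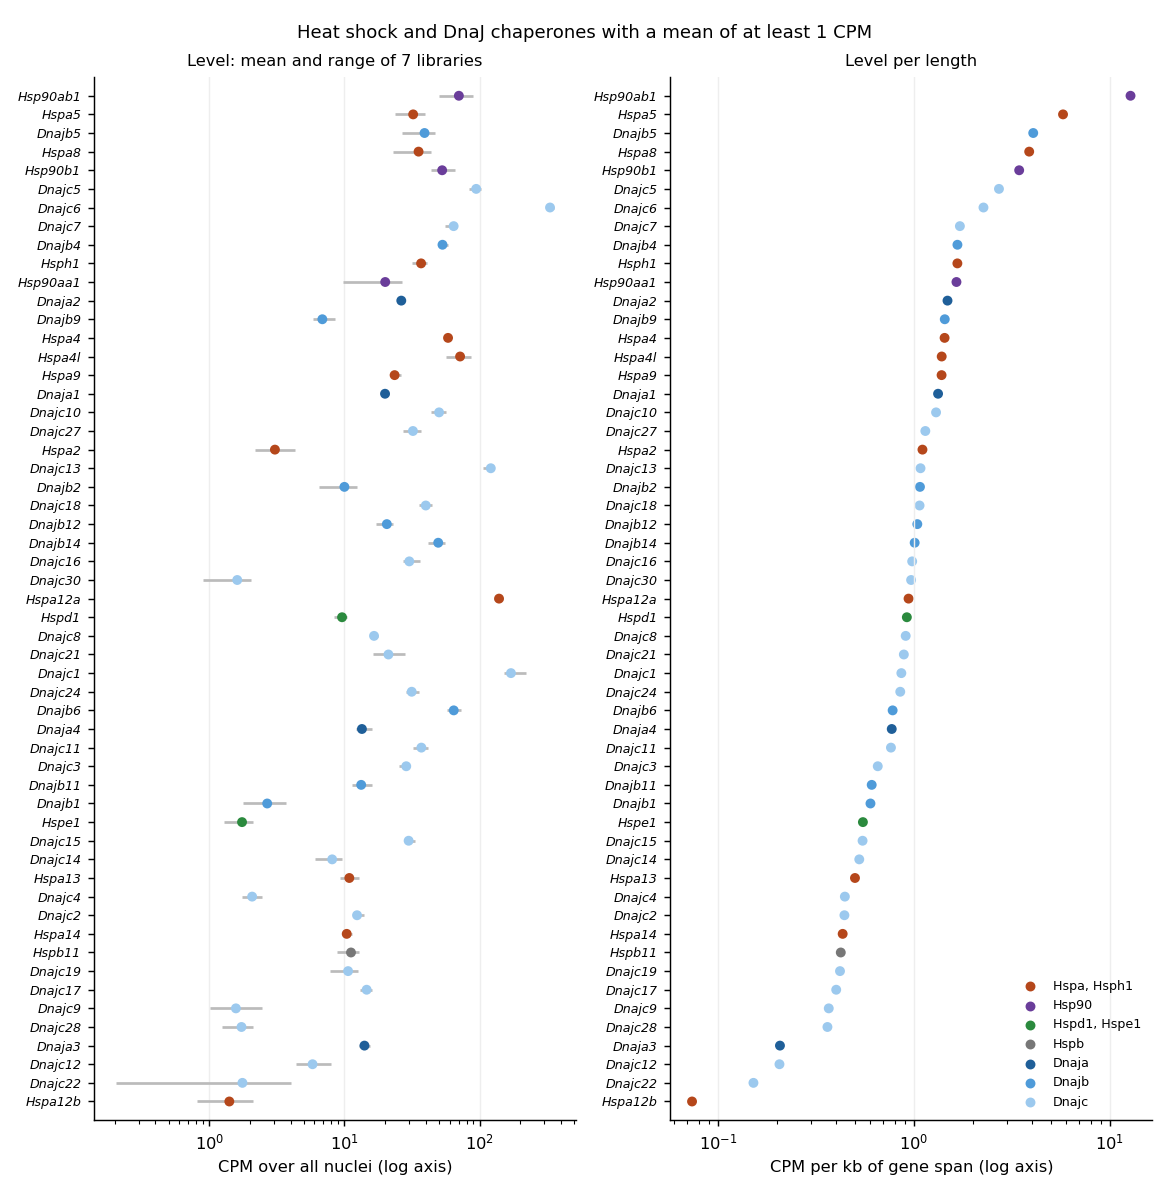
Level of each member with a mean of at least 1 CPM. Left, mean CPM over all nuclei with a line from the lowest to the highest of the 7 libraries (log axis). Right, mean CPM per kb of gene span (log axis), with members in the same order on both sides and colours for the gene series. Hsp90ab1 leads at 12.8 CPM per kb, while Dnajc6 leads in CPM at 332.

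Of the heat-inducible members, Hspa1a, Hspa1b and Hspb1 had few UFIs. Hspa1a had between 4 and 15 UFIs in a library and 0.376 ± 0.168 CPM (SD, n = 7), and Hspa1b between 1 and 23 UFIs and 0.243 ± 0.187 CPM. Hspb1, a heat-inducible small heat shock protein, had 0 UFIs in 4 libraries and 2 or 3 in the other 3. A count of 0 allowed up to 0.349, 0.204, 0.121 and 0.114 CPM in those 4 libraries. Dnajb1, the inducible cytosolic J-domain partner of Hspa1a, lay between 1.77 and 3.68 CPM. Per kilobase of span, Hspa1a lay at 0.127, Hspa1b at 0.0867, Hspb1 at 0.017 and Dnajb1 at 0.602 CPM per kb, all below the median member. Hsp90aa1, the inducible cytosolic Hsp90, lay above it at 1.65 CPM per kb, as did the constitutive Hspa8 at 3.88 and Dnaja1 at 1.33. Transcripts of Hspa1a and Hspa1b share 66.3% and 62.3% of their 50-base words with other genes, mainly each other, so uniquely mapped reads undercount both. The same holds in part for Hsp90aa1 (58.5% shared, most with Gm12346), Hspa8 (52.7%, with Gm15459), Hspd1 (44.8%) and Dnajb6 (42.8%). In all 14 members exceeded 25%. Among them Dnaja4, Dnajb8, Dnajc14, Hspa1l and Hspb2 shared most with a gene that overlaps their own span, where a read can still map to a single place. Gm20481, on the other strand, overlaps 74.99% of the exon length of Hspa1a, while no annotated gene overlaps Hspa1b. Whether this overlap lowers the count of Hspa1a was not tested.

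Storage was compared first between the 2 frozen and the 2 fresh libraries without preindex, by edgeR's quasi-likelihood test with Benjamini-Hochberg adjustment over 19299 genes. The median nucleus held 10187 and 15385 UFIs in these frozen libraries and 21127 and 27543 in the fresh ones. Depth therefore moved with storage here, and its effect was not tested. Of the 68 members 60 could be tested, and the other 8 (Dnajb7, Dnajb8, Dnajb13, Dnajc25, Hspb1, Hspb2, Hspb3 and Hspb7) had at most 9 UFIs in a library. Among the 60, 5 passed an adjusted p of 0.05, which is 8.33%, against 4.51% of all genes tested. The members' median log2 fold change was -0.03, beside -0.01 over all genes. Higher in frozen tissue were 2 members, beside 2.18% of genes called higher, and lower were 3, beside 2.33% of genes called lower. DESeq2 called 1 member, Hspa4l, beside 2.61% of genes. With neuron-like nuclei alone 5 of 59 members passed, beside 5.5% of genes.

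Hspa4l, an Hsp110-type nucleotide exchange factor on chromosome 3 (40744495 to 40796103, plus strand), had 85.2 and 86.5 CPM in the frozen libraries without preindex. The fresh libraries had 71.5 and 72.0 CPM. The log2 fold change of Hspa4l was 0.30 ± 0.05 (SE) with an adjusted p of 0.00393 by edgeR, and in neuron-like nuclei alone it was 0.30 with an adjusted p of 0.0031. Dnajb4, a cytosolic J-domain partner of Hsp70, had 56.5 and 58.8 CPM in frozen and 49.1 and 52.2 in fresh tissue. Its change was 0.23 ± 0.06 with an adjusted p of 0.0314. The related exchange factors Hspa4 and Hsph1 gave 0.00 ± 0.06 and 0.02 ± 0.07 and did not pass.

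Dnajc21, which takes part in maturation of the large ribosomal subunit, was lower in frozen tissue, at 17.3 and 16.3 CPM against 21.9 and 21.4 in fresh. The change was -0.33 ± 0.08 with an adjusted p of 0.0317. Dnajc16 had 30.1 and 27.9 CPM in frozen and 36.0 and 35.8 in fresh tissue (-0.28 ± 0.07, adjusted p 0.0381 by edgeR). The third, Dnajc22, a membrane-spanning J-domain protein, rested on 7 and 3 UFIs in the frozen libraries and 35 and 77 in the fresh ones, with a change of -1.88 ± 0.45 and an adjusted p of 0.030. The change was -2.97 without replicate 1 and -0.95 without replicate 2 of the frozen libraries, and the latter did not pass. Frozen and fresh libraries did not overlap for any of these 3 genes. They were named for their adjusted p, so this adds no evidence, and the share of all genes without overlap was not counted. Hspa5 (BiP) had 32.7 and 31.6 CPM in frozen and 39.2 and 38.3 in fresh tissue and did not pass over all nuclei (-0.23 ± 0.07, adjusted p 0.0624). In neuron-like nuclei alone it did, at -0.30 ± 0.07 with an adjusted p of 0.0182. The other members that changed most among those of at least 10 CPM did not pass: Dnajc19 at 0.29 ± 0.12, Dnajb11 at -0.21 ± 0.10, Dnaja4 at -0.22 ± 0.10, Dnajc15 at 0.18 ± 0.07 and Dnajb12 at -0.17 ± 0.08.

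The count of 5 moved with single libraries. Calls over all genes fell as well without replicate 2 of the fresh libraries, as given further below. Their shares for the other settings that follow are not given here. Without replicate 2 of the frozen or replicate 2 of the fresh libraries, 1 member passed, and without replicate 1 of the fresh libraries 2 did. Leaving out either preindexed frozen library, which enters only through the shared filter, scaling, spread and adjustment, also left fewer than 5. So did leaving out replicate 1 of the frozen libraries.

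The same question was put to the preindexed libraries, with 2 frozen and 1 fresh. The spread around the lone fresh library was taken from the other groups. Here 19 of the 60 members passed by edgeR, which is 31.7%, against 22.5% of all genes tested. Lower in frozen tissue were 14 members, beside 9.45% of genes called lower, and higher were 5, beside 13.1% of genes called higher. The members' median log2 fold change was -0.04, beside 0.01 over all genes. With upper-quartile scaling the split was 18 lower and 3 higher for the members and 2626 lower and 2253 higher for all genes, in place of 1824 lower and 2523 higher. DESeq2 called 12 members (11 lower, 1 higher), beside 12.8% of genes. Without replicate 1 of the preindexed frozen libraries fewer members passed, and the share of all genes called then is not given here.

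Hsp90aa1, the inducible cytosolic Hsp90 (chromosome 12, 110690605 to 110702728, minus strand), had 9.77 and 10.4 CPM in the preindexed frozen libraries and 19.9 in the fresh one. Its level in the 4 libraries without preindex lay between 23.9 and 26.7 CPM. The preindexed libraries therefore fell below all 4 others, a pattern that was not counted over all genes. Preindexed frozen lay below fresh, with a log2 fold change of -1.03 ± 0.09 and an adjusted p of 7.66e-07 by edgeR. Hspa8, the constitutive Hsp70 that uncoats clathrin (chromosome 9, 40800984 to 40810087, plus strand), had 22.8 and 22.9 CPM in frozen and 37.0 in fresh tissue. Without preindex Hspa8 lay between 39.2 and 43.9 CPM. The preindexed change was -0.75 ± 0.07 with an adjusted p of 2.21e-06.

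In the ER group, Hspa5 (chromosome 2, 34771970 to 34777547, plus strand) had 23.8 and 23.6 CPM in preindexed frozen and 36.4 in fresh tissue, a change of -0.67 ± 0.07 with an adjusted p of 7.84e-06 by edgeR. Of the 10 members placed in the ER, 4 were lower in frozen tissue, beside 9.45% of all genes, and 1 was higher, beside 13.1%. Dnajb11, which delivers clients to BiP, had 11.9 and 13.0 CPM against 16.1 (-0.42 ± 0.10, adjusted p 0.00685). Dnajc1 had 171 and 178 CPM against 219 (-0.38 ± 0.06, adjusted p 0.000193). Dnajc3, an inhibitor of the eIF2α kinases, had 25.5 and 26.6 CPM against 30.2 (-0.26 ± 0.07, adjusted p 0.0149). Dnajb12, an ER membrane J-domain protein, was the higher one, at 21.7 CPM in both frozen libraries against 17.2 (0.28 ± 0.08, adjusted p 0.0222). Hsp90b1 had 43.3 and 43.5 CPM against 47.7 and did not pass (-0.19 ± 0.07, adjusted p 0.071). The 3 members with an ER element in the promoter thus gave -0.67, -0.19 and -0.26 here, and -0.23, -0.16 and 0.04 without preindex.

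Among the 21 cytosolic members, 8 were lower in preindexed frozen tissue, beside 9.45% of all genes, and 0 higher, beside 13.1%. Besides Hsp90aa1 and Hspa8, the largest was Dnajb5, a cytosolic J-domain protein (chromosome 4, 42949814 to 42959425, plus strand), with 26.5 and 29.6 CPM against 43.9 (-0.70 ± 0.08, adjusted p 2.65e-05 by edgeR). Hsp90ab1, the constitutive Hsp90, had 50.6 and 50.3 CPM against 61.7 (-0.34 ± 0.07, adjusted p 0.00345). Hspa4l had 56.8 and 59.5 CPM against 70.4 (-0.33 ± 0.06, adjusted p 0.00108), opposite in sign to its change without preindex. Hsph1 had 33.0 and 31.4 CPM against 38.8 (-0.33 ± 0.08). Smaller falls passed for Dnajb6 (-0.24 ± 0.06) and Dnajb4 (-0.20 ± 0.06). Hspa4 and Dnaja1 gave -0.08 ± 0.07 and -0.21 ± 0.08 and did not pass. The heat-inducible Hspa1a (-0.11 ± 0.63), Hspa1b (0.26 ± 1.11) and Dnajb1 (0.36 ± 0.25) did not pass either, and the standard errors of the first 2 show how little their counts can resolve.

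In the other groups, Dnajc21 was lower with preindex too, at 20.8 and 22.2 CPM against 28.1 (-0.44 ± 0.08, adjusted p 0.000724 by edgeR). It was the only member past the threshold in the same direction with both primers over all nuclei. Dnajc6 was slightly lower (318 and 324 CPM against 348, -0.17 ± 0.06, adjusted p 0.0404), while Dnajc13 was slightly higher (125 and 126 CPM against 106, 0.20 ± 0.06, adjusted p 0.02). Of 7 mitochondrial members only Dnajc19, the motor subunit of the inner membrane import machine, passed, at 12.6 and 11.3 CPM against 7.78 (0.56 ± 0.14, adjusted p 0.00793). Its span overlaps other genes over 77.6% of its length. Hspa9, Hspd1 and Hspe1, the mitochondrial Hsp70 and chaperonin pair, gave -0.05 ± 0.08, -0.14 ± 0.12 and 0.23 ± 0.26. Dnajc12, a J-domain partner of the aromatic amino acid hydroxylases, had 7.99 and 6.42 CPM against 4.51 (0.61 ± 0.19, adjusted p 0.0284), and Dnajc22 had 3.42 and 4.06 CPM against 0.591 (2.60 ± 0.37, adjusted p 0.00011).

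**Figure D2:**
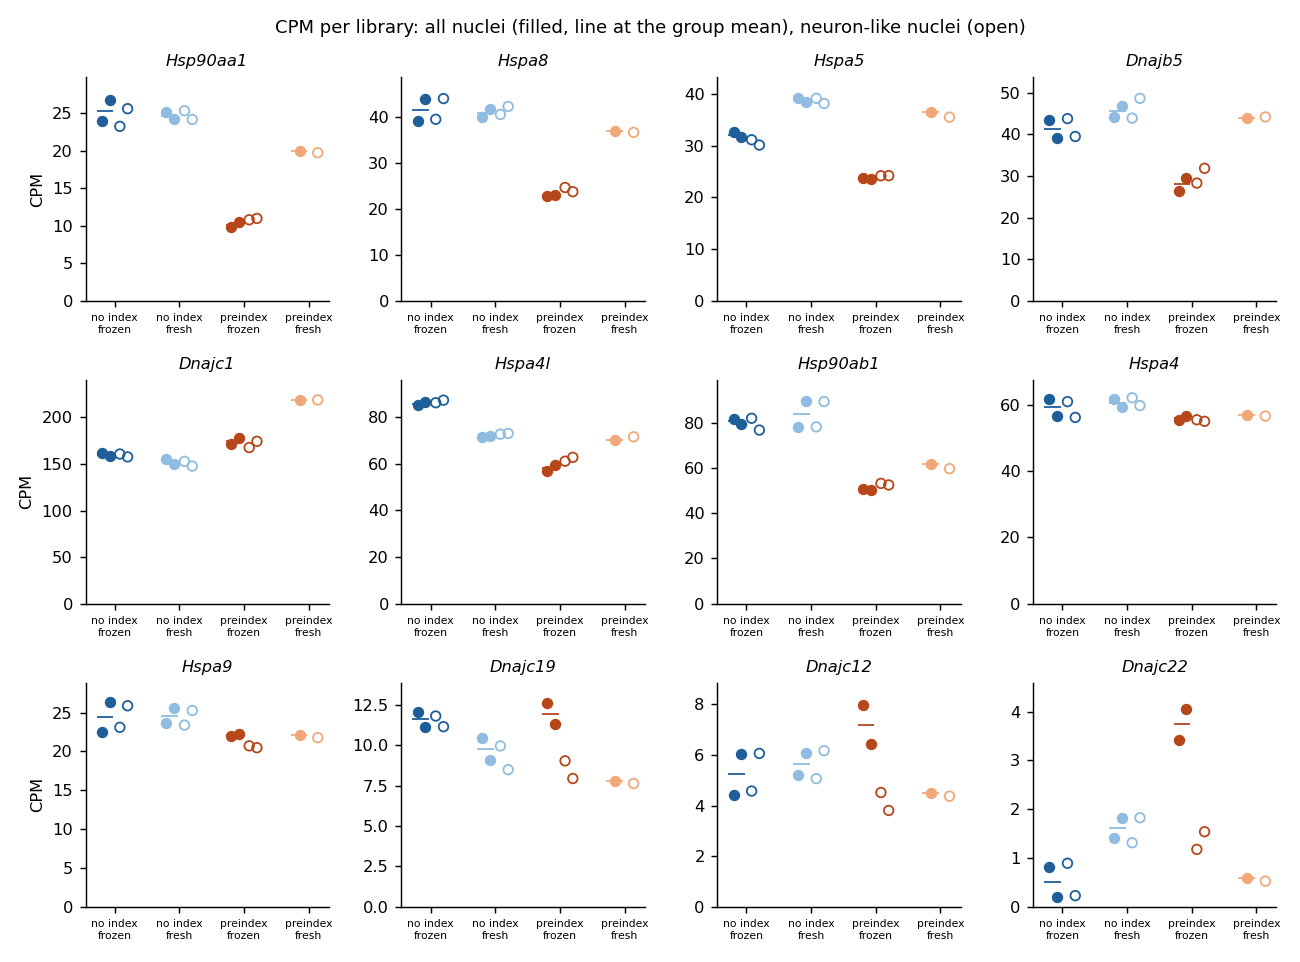
CPM of 12 members in each library (vertical axis from 0), by group. Filled points are all nuclei with a line at the group mean and open points are neuron-like nuclei of the same library. Hsp90aa1, Hspa8, Hspa5 and Dnajb5 sit lower in both preindexed frozen libraries than in the preindexed fresh one in either set of nuclei, while Dnajc12 falls from 7.99 and 6.42 CPM over all nuclei to 4.52 and 3.80 in neuron-like nuclei of these libraries.

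Since kidney tubule-like nuclei were seen only in the preindexed frozen libraries, the members called there were set beside their level in those nuclei. All 5 members called higher in frozen tissue (Dnajc22, Dnajc12, Dnajc19, Dnajb12 and Dnajc13) were at least 2-fold higher in kidney-like than in neuron-like nuclei of both libraries. Of the 14 called lower, 6 were at least 2-fold lower in kidney-like nuclei, 1 (Dnajc3) was higher and 7 were neither. Among all genes tested, 34.4% were higher and 23.7% lower in kidney-like nuclei by this rule. The shares among only the genes called higher or lower with preindex were not counted, so the members cannot be set against them. Kidney-like nuclei of the frozen and liver-rich nuclei of the fresh preindexed libraries were then left out together. With both left out, 10 of 60 members passed (16.7%), beside 7.47% of genes, and all 10 were lower in frozen tissue. None of the 5 higher members passed by edgeR then, and 4 members had a positive change at an unadjusted p under 0.05. The share of all genes with such a change is not given here. Without those nuclei Dnajc22 still gave 1.31 ± 0.45 in place of 2.60, with an adjusted p of 0.105 by edgeR. Dnajc19 and Dnajb12 gave 0.18 and 0.19 in place of 0.56 and 0.28, and Dnajc12 and Dnajc13 gave -0.10 and 0.04 in place of 0.61 and 0.20.

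In neuron-like nuclei alone 9 of 59 members passed with preindex (15.3%), beside 6.53% of genes, all lower in frozen tissue. No member was called higher by edgeR, and 5 had a positive change at an unadjusted p under 0.05. The share of all genes with such a change is not given here, so the 5 cannot be set against it. DESeq2 was run over all nuclei only. Hsp90aa1 had 10.8 and 11 CPM in frozen and 19.7 in fresh neuron-like nuclei (-0.84 ± 0.09). Hspa8 had 24.7 and 23.7 CPM against 36.7 (-0.59 ± 0.07) and Hspa5 24.2 CPM in both against 35.5 (-0.54 ± 0.07). Dnajb5 had 28.3 and 31.9 CPM against 44.2 (-0.54 ± 0.09). For these 4 genes both frozen libraries lay below the fresh one. The 4 genes were named for their adjusted p, so this order adds no evidence, and its share over all genes was not counted. The other 5 were Dnajb11 (-0.38), Dnajc21 (-0.37), Dnajc1 (-0.34), Dnajc3 (-0.32) and Dnajb6 (-0.28). Hsp90ab1, Hsph1, Dnajb4, Dnajc6 and Hspa4l, called lower over all nuclei, did not pass there. Hsp90ab1 gave -0.16, Hsph1 -0.17, Dnajb4 -0.07 and Dnajc6 -0.04.

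**Figure D3:**
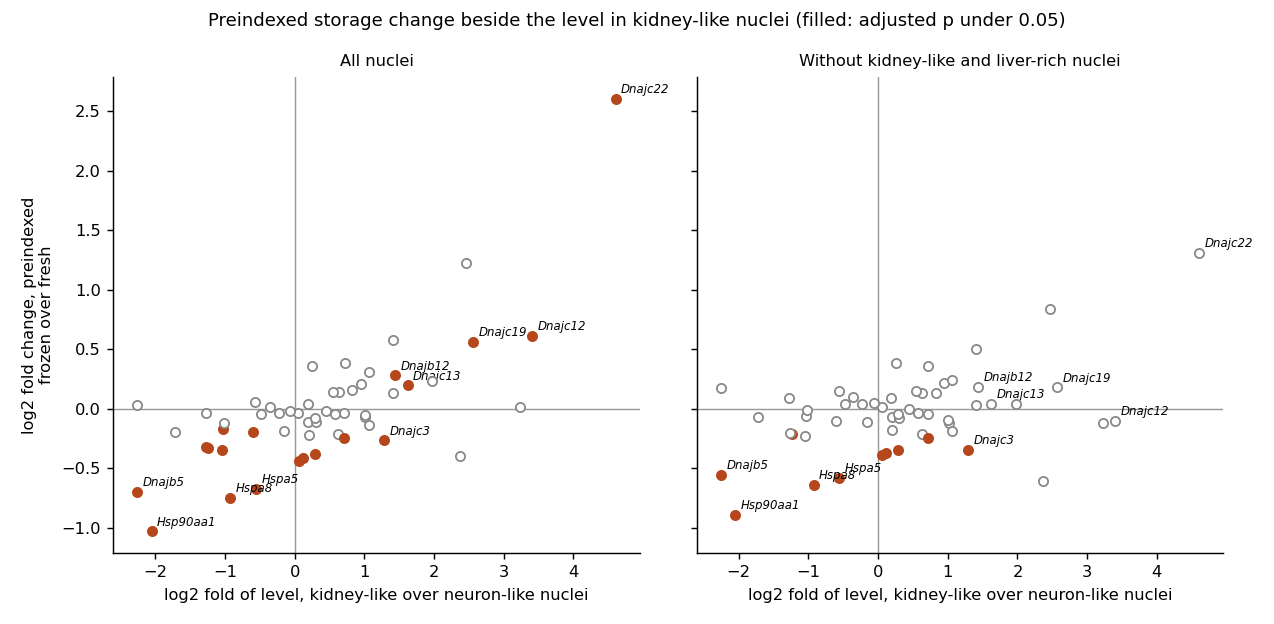
Preindexed storage change (log2 fold change, frozen over fresh, vertical axis) of each tested member with at least 10 UFIs in kidney-like nuclei against its level in kidney-like over neuron-like nuclei (log2 fold, horizontal axis), over all nuclei on the left and without the kidney-like and liver-rich nuclei on the right. Filled points passed an adjusted p of 0.05. The 5 members above zero that passed on the left lie to the right of zero, and no member above zero passed in the right panel.

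The difference of the storage change between primers was tested as an interaction. Over all nuclei 13 of 60 members passed by edgeR (21.7%), beside 16.4% of genes, with 10 more negative under preindex and 3 more positive. DESeq2 called 8, beside 9.77% of genes, and in neuron-like nuclei 6 of 59 passed (10.2%), beside 7.21% of genes. The latter 6 were Hsp90aa1 (-0.88), Hspa8 (-0.65), Hspa4l (-0.49), Dnajc1 (-0.47), Dnajb4 (-0.31) and Dnajc22 (3.09). Hspa4l and Dnajb4 were the members past the threshold in opposite directions with the primers over all nuclei, together with Dnajc22. In neuron-like nuclei none of them passed with preindex. For Hspa5 the difference was -0.44 ± 0.10 over all nuclei with an adjusted p of 0.00682, and in neuron-like nuclei it did not pass. The preindexed side of each difference rests on the 1 fresh library.

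**Figure D4:**
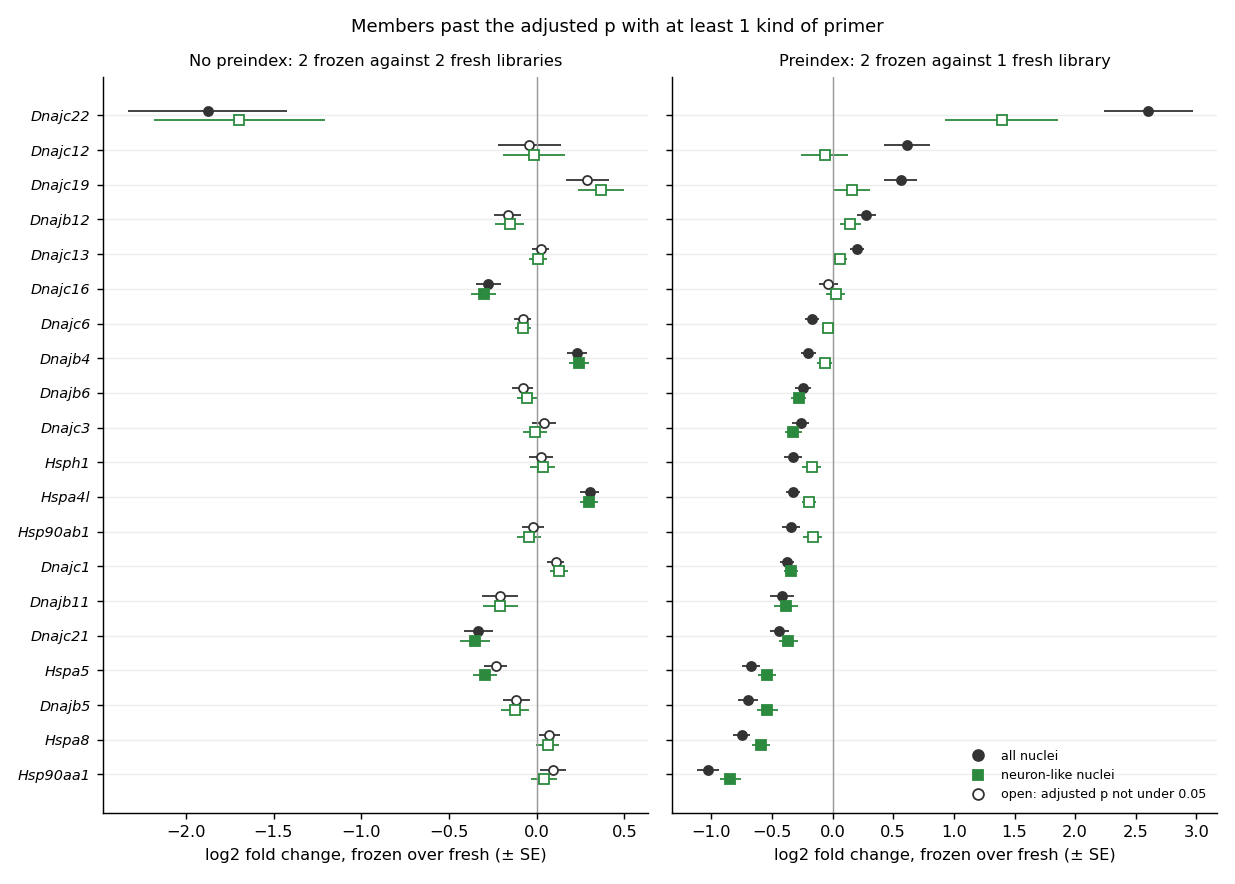
Log2 fold change of frozen over fresh (horizontal axis, ± SE) for every member past an adjusted p of 0.05 with at least 1 primer, without preindex on the left and with preindex on the right. Circles are all nuclei and squares neuron-like nuclei, and open symbols did not pass. Hsp90aa1, Hspa8, Dnajb5 and Hspa5 lie at -0.67 or below on the right for all nuclei and between -0.23 and 0.09 on the left.

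The partner genes of the chaperones, 56 in 4 lists, were all tested. Without preindex 1 passed by edgeR, beside 4.51% of all genes. This was Hyou1, the Hsp110 of the ER, with 25.6 and 23.6 CPM in frozen and 32.0 and 32.8 in fresh tissue (-0.37 ± 0.07, adjusted p 0.00784). With preindex 9 of 56 passed, a smaller share than the 22.5% of all genes, with 3 higher and 6 lower beside 13.1% and 9.45% of all genes. The median over the 56 was -0.06, beside 0.01 over all genes. A list of 17 genes of ER folding and the unfolded protein response included Xbp1, Atf4, Atf6, Ern1, Eif2ak3 and Ddit3, none of which passed. In this list 4 were lower, beside 9.45% of all genes, and 0 higher, beside 13.1%: the disulphide isomerases Pdia6 (-0.46), Pdia4 (-0.40) and Pdia3 (-0.31) and the lectin chaperone Calr (-0.32). All 4 of these also passed in neuron-like nuclei, at -0.38, -0.46, -0.27 and -0.25. With cerebellar granule-like nuclei left out as well, Pdia6 and Pdia3 passed and Pdia4 and Calr did not, with changes still at -0.46 and -0.25. The preindexed libraries held 0 such nuclei, so only the filter, scaling, spread and adjustment shared with the other libraries could alter these calls. In the list of 13 chaperonin and prefoldin genes Vbp1 (-0.33) and Cct3 (-0.29) were lower, and neither passed in neuron-like nuclei (-0.28 and -0.26) or without kidney-like and liver-rich nuclei (-0.28 and -0.26). In the list of 14 Hsp70 exchange factors and co-chaperones, in which Hsf1 and Hsf2 were counted, Bag3 (2.17), Bag1 (0.50) and Sil1 (0.23) were higher. In neuron-like nuclei they gave 1.10, 0.37 and 0.22 and none of the 3 passed, while without kidney-like and liver-rich nuclei Sil1 passed at 0.22. The list of 12 Hsp90 co-chaperones, in which Trap1 was counted, had 0 calls by edgeR with either primer. In it 1 gene lay below an unadjusted p of 0.05 with preindex and 0 without, and the share of all genes there is not given here. DESeq2 was not run for these lists.

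Kinds of nuclei were compared by level alone, since clusters were made from the same nuclei (with the members left out of the clustering genes), and no test was applied. A member was called where its mean CPM differed at least 2-fold from that of neuron-like nuclei and in the same direction in every library with 20 or more nuclei of the kind. For most kinds few members were called. The summed level of the members was 2084 ± 106 CPM in neuron-like nuclei (SD, n = 7), 2162 ± 199 in oligodendrocyte-like nuclei (n = 7), 1853 ± 158 in astrocyte-like nuclei (n = 5) and 1405 ± 65.7 in oligodendrocyte precursor-like nuclei (n = 3). The libraries differ between these means, and those used for the precursors were all preindexed. With UFIs pooled over all 7 libraries, the level was 1605 CPM in precursor-like and 2089 CPM in neuron-like nuclei.

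In oligodendrocyte-like nuclei (316) only Dnajb2 was called, and it was higher. Dnajb2 encodes a J-domain protein with ubiquitin-binding motifs that steers clients to the proteasome. It had 24.5, 25.2, 49.7, 42.6, 47.5, 44.0 and 43.7 CPM in the 7 libraries against 5.33 to 11.2 CPM in neuron-like nuclei, with no overlap. The means were 39.6 ± 10.4 and 8.82 ± 2.74 CPM, a 4.49-fold difference. Among all genes 4.78% were called higher and 5.43% lower in this kind, and the share of genes without overlap was not counted. Astrocyte-like nuclei (201) had 2 members higher, beside 6.54% of genes, and 5 lower, beside 12.4%. Dnajb2 was again among the higher, at 18.4, 24.4, 15, 16.2 and 7.07 CPM against 11, 11, 5.33, 6.84 and 5.64 in neuron-like nuclei of the same libraries (2.04-fold), higher in each library though the ranges overlapped. Neither of the 2 higher calls in astrocyte-like nuclei held with 20 principal components or with the members kept among the clustering genes. Hspa14, an Hsp70-like protein of the ribosome, was 2.48-fold lower, on 14 UFIs in these libraries. Named after their values were seen, the other calls were Hspa2, higher at 6.54 against 2.95 CPM, and Dnajc30, Hspa12b, Hspa1b and Hspa1l, lower, of which the last 3 had no UFI in the 5 libraries compared.

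Oligodendrocyte precursor-like nuclei (112, with 21 to 27 in each of the 3 libraries that could be used) had 19 of 60 members lower (31.7%), beside 30.9% of genes, and 0 higher, beside 5.98%. The members' share lay near the background, and 10 of the 19 had no UFI in the 3 libraries compared. Hspa12a had 47.0, 45.0 and 44.0 CPM there against 140, 144 and 140 in neuron-like nuclei, a 3.11-fold difference. Dnajc6 had 119, 110 and 126 CPM against 339, 342 and 353, a 2.92-fold difference. Dnajc2, a ribosome-associated J-domain protein, rested on 5 UFIs in these libraries.

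Neuron-like kinds were set against the other neuron-like nuclei. GABA neuron-like nuclei (974) had 1 member higher and 1 lower, beside 3.05% and 7.8% of genes. Named after their values were seen, these were Hspa12b (3.29 ± 1.42 against 0.66 CPM) and Hspa1b, which had no UFI there. Striatal medium spiny neuron-like nuclei (1350) had 0 higher and 3 lower, beside 3.22% and 12.3%. Among these, Dnajc21 had 5.41 to 14 CPM in medium spiny-like against 17.2 to 31.2 CPM in other neuron-like nuclei, with no overlap and a mean 2.70-fold lower. The share of all genes without overlap was not counted. The other 2, Hspa12b and Hspa1a, rested on 3 and 2 UFIs and were named after their values were seen. Dentate granule-like nuclei (409) had 1 higher and 4 lower, beside 2.94% and 13.9%. Hspa2, an Hsp70 best known from sperm development, was the higher one, at 11.3 ± 4.67 CPM against 2.57 ± 0.707 (4.38-fold, n = 7), on 83 UFIs. Hspa4l was lower there in every library, at 19.4 to 37.6 CPM against 62.8 to 89.4 CPM (2.53-fold), on 187 UFIs. The other lower members, Hspa12b, Hspa1b and Hspb8, had no UFI there. Cerebellar granule-like nuclei (245) had 2 higher and 0 lower, beside 3.03% and 9.52% of genes. Dnajc19 had 18.1, 25.3, 20.9 and 29.6 CPM there against 7.82 to 11.1 CPM (2.47-fold, n = 4). The other, Dnajc9, a histone chaperone named after its values were seen, was 2.10-fold higher on 15 UFIs.

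Kidney tubule-like nuclei had 17 members higher and 11 lower of 60 (28.3% and 18.3%), beside 34.4% and 23.7% of genes, both below the background. Dnajc22 had 29.0 and 37.0 CPM in the 2 libraries against 1.17 and 1.54 in neuron-like nuclei (24.3-fold). Dnajc12 had 49.5 and 38.7 CPM against 4.52 and 3.80 (10.6-fold), and Dnajc19 had 52.4 and 48.0 CPM against 9.03 and 7.94 (5.91-fold). These 3 were also higher in frozen than in fresh preindexed libraries over all nuclei. In neuron-like nuclei they did not pass, at 1.39 ± 0.47 for Dnajc22 (1.17 and 1.54 CPM against 0.522), -0.07 ± 0.20 for Dnajc12 and 0.16 ± 0.14 for Dnajc19.

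**Figure D5:**
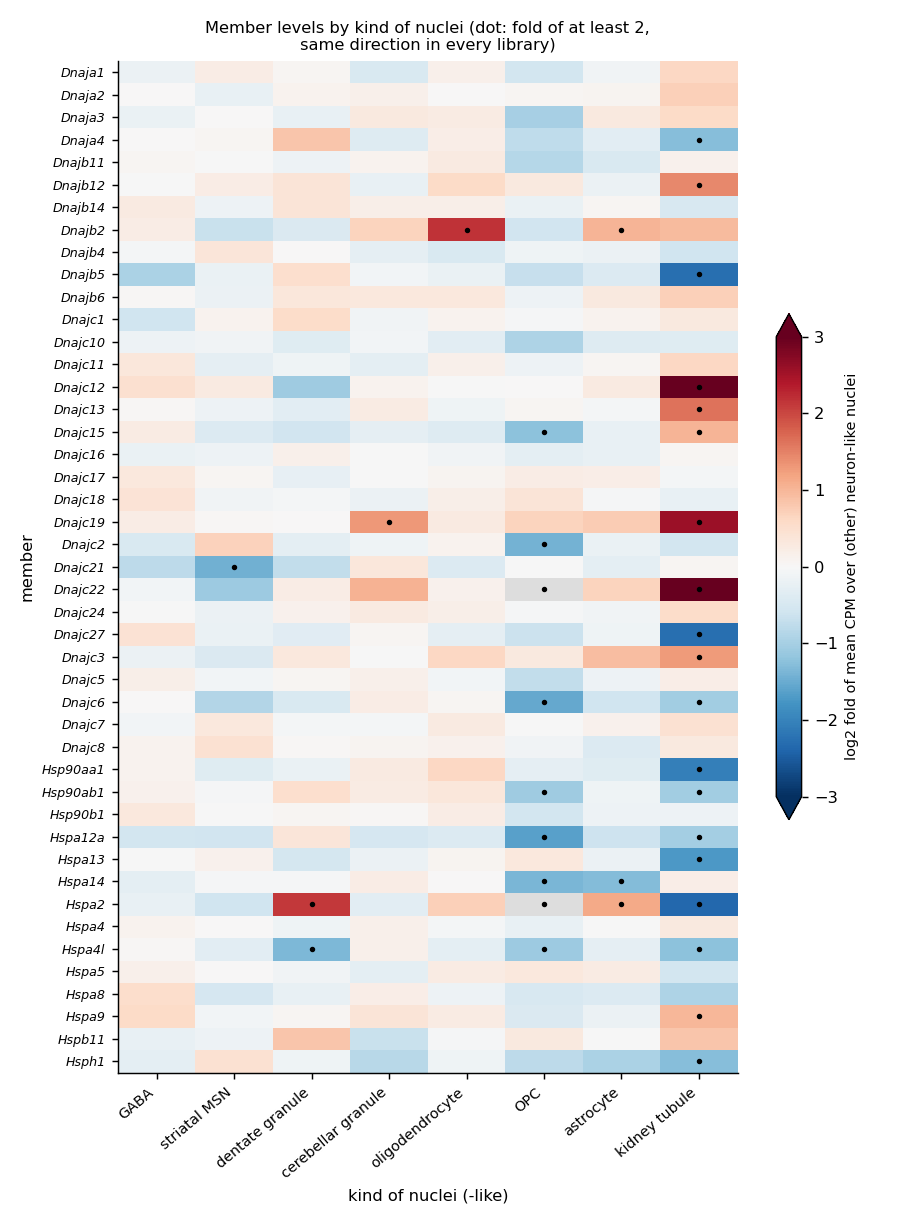
Log2 fold of mean CPM of the members with a mean of at least 10 CPM over the libraries, with Dnajb2, Hspa2, Dnajc22 and Dnajc12 added (rows), in each kind of nuclei (columns) over neuron-like nuclei, or over the other neuron-like nuclei for the neuronal kinds, as colour. Dots mark a fold of at least 2 in the same direction in every library. Grey marks a member with no UFI of the kind in the libraries compared. Dots are most in the kidney tubule and precursor (OPC) columns and few elsewhere, with Dnajb2 in oligodendrocytes at 4.49-fold and Hspa2 in dentate granule nuclei at 4.38-fold.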

How the data were processed

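The authors deposited raw UFI counts, whole numbers per gene and nucleus, for each library. Poly-A tails were trimmed, barcodes chosen by a manual cutoff on reads, reads aligned and kept where uniquely mapped, and UFIs counted over whole genes. The submitters' processing notes name cutadapt, UMI-tools, STAR, featureCounts and Scanpy and the builds GRCh38, GRCm38 and mm10, and the tool versions used for the brain libraries and the strand setting of featureCounts are not given in the sources used here, though the study describes UFIs as strand-specific. The members and gene lists were chosen with earlier results of these data known.

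From there, all 11198 nuclei were kept and doublets were not removed. A gene not listed in a library was set to 0. No column belonged to other samples. Nuclei were scaled to 10000 counts, logged and clustered in scanpy 1.11.5 (2000 variable genes without the members, 40 principal components, 10 neighbours, Leiden resolution 0.4), without batch correction. Clusters were named from marker lists, by a rule written after a first clustering was seen, so names may differ from those of the study. Nuclei with at least 10 UFIs of liver genes were set apart. UFIs were summed per library and tested in edgeR 4.0.16 (TMM scaling, filterByExpr, quasi-likelihood, a mean for each of the 4 groups, 3 residual degrees of freedom), with adjusted p-values over all genes tested. The fit was tested on simulated data with known changes, which were larger than most of those reported here, so the check does not cover small changes. The main test used all 7 libraries, since preindexed fresh tissue has 1. DESeq2 1.42.0, other scalings, filters, a replicate block and subsets of nuclei were alternatives. Same-numbered libraries did not vary together (r of 0.04, -0.01 and -0.04 across genes).

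Named members were those past the adjusted p, up to 10 with the largest change among members of at least 10 CPM, the 10 highest in CPM, a set of core members, and up to 3 per kind of nuclei. Coordinates are those of GENCODE on GRCm38. Intervals and limits on counts of 0 (3 counts, 95% level) cover counting error only.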

Additional observations from a re-analysis of the deposited data

Results flagged for a closer look

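The storage change differed between primers for 13 members, beside 16.4% of all genes, and 2 partner genes over all nuclei, by the interaction test of edgeR with adjustment over all genes. The values below are the log2 fold change with preindex minus that without, and the 2 changes share no library. More negative with preindex were Hsp90aa1 (-1.12), Hspa8 (-0.82), Hspa4l (-0.63), Dnajb5 (-0.58), Dnajc1 (-0.48), Hspa5 (-0.44), Dnajb4 (-0.43), Hsph1 (-0.35), Hsp90ab1 (-0.32) and Dnajc3 (-0.31), together with the prefoldin subunit Vbp1 (-0.56). More positive were Dnajc22 (4.48), Dnajb12 (0.44) and Dnajc11 (0.29), together with Bag3 (1.91). Dnajc11, a mitochondrial J-domain protein, had 35.9 and 35.4 CPM in frozen and 41.6 and 40.3 in fresh tissue without preindex, against 36.6 and 37.3 in frozen and 32.4 in fresh tissue with preindex, and passed narrowly at an adjusted p of 0.0492 by edgeR. Kidney-like and cerebellar granule-like nuclei move with the groups compared. Without kidney-like and liver-rich nuclei 9 members passed, beside 7.9% of all genes, and in neuron-like nuclei 6 did, beside 7.21%.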

How the results depend on the processing

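Counts of members past the adjusted p moved as follows. Calls over all genes moved as well and are given further below for some of these settings. Without preindex (5), DESeq2 gave 1, a model with additive storage and primer effects 0, the 4 libraries alone 2, and leaving out 1 library 1 to 5. With preindex (19), DESeq2 gave 12, the additive model 0, neuron-like nuclei 9, removal of kidney-like and liver-rich nuclei 10, and leaving out 1 library 10 to 21. For the difference (13), DESeq2 gave 8, neuron-like nuclei 6, and leaving out 1 library 9 to 12. The additive model assumes a single storage change for both primers, and 10 members had an unadjusted p under 0.05 in it. The share of all genes at that unadjusted p is not given here. Leaving out the preindexed fresh library makes the preindexed comparison impossible. The next alternatives, and the block in neuron-like nuclei, were chosen after seeing the data. They gave 9 (preindex) and 6 (difference) in neuron-like nuclei without cerebellar granule-like ones. The preindexed libraries held 0 of these nuclei, so preindexed counts can move here only through the shared filter, scaling, spread and adjustment. Counts without preindex, where these nuclei lay, are not given for this alternative. With a replicate block the counts were 5, 17 and 12, and in neuron-like nuclei with the block 6, 8 and 7. The labels do not say whether replicate numbers pair libraries, and the correlations given above cannot decide it. Changes that reversed were Dnajc22 without preindex (0.35), Dnajb4 (0.051) and Hspa4l (0.040) with preindex in the additive model, and Dnajc12 with preindex in neuron-like nuclei (-0.066), without kidney-like and liver-rich nuclei (-0.10), in neuron-like nuclei with the block (-0.12) and without cerebellar granule-like nuclei (-0.061). Over all genes, calls fell from 870 to 504 (DESeq2), 40 (additive) and 498 (without fresh replicate 2) and rose to 1522 with no filter, without preindex. With preindex they fell from 4347 to 2472 (DESeq2), 40 (additive), 1184 (neuron-like), 1029 (neuron-like with the block), 1058 (neuron-like without cerebellar granule-like) and 1397 (without kidney-like and liver-rich nuclei). For the difference they fell from 3168 to 1885 (DESeq2), 1306 (neuron-like), 1238 (with the block), 1132 (without cerebellar granule-like) and 1476 (without kidney-like and liver-rich nuclei). The 67 calls between kinds ranged from 57 to 84. Low counts limit the 8 members that could not be tested, Hspa1l, Hspa1a and Hspa1b most, and 1 preindexed fresh library limits every preindexed comparison. Among the 8, Dnajc25 has 94.45% of its exon length overlapped by Gm20503 on the same strand. Whether depth or this overlap keeps its count low was not tested.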

Other observations

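Endothelial-like and microglia-like nuclei were too few per library for a comparison, so UFIs were pooled over the 7 libraries, with exact Poisson intervals at the 95% level that cover counting error only. The genes named here were chosen after their values were seen. In 102 endothelial-like nuclei, which also carried pericyte markers, Hspa12b, an Hsp70 relative known from blood vessels, had 60.7 CPM (49.0 to 74.4, 93 UFIs). Its level in neuron-like nuclei was 0.896 ± 0.355 CPM (SD, n = 7), and microglia-like nuclei held 1 UFI of it. Hsp90ab1 had 159 CPM (139 to 180) in endothelial-like and 81.7 CPM (66.2 to 99.6) in microglia-like nuclei, beside 70.2 ± 14.9 in neuron-like nuclei. Dnajc3 had 74.4 CPM (61.4 to 89.4) in endothelial-like nuclei, beside 26.5 ± 2.55 in neuron-like nuclei, and Hspa5 66.0 CPM (53.7 to 80.1), beside 31.8 ± 6.15. In 69 microglia-like nuclei Hspa5 had 36.2 CPM (26.2 to 48.8) and Hspa8 28.6 CPM (19.8 to 40.0). The summed level of the members was 2393 CPM in endothelial-like and 2124 CPM in microglia-like nuclei.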
